A study of Arabidopsis thaliana with 12 samples.

Results

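Flavonoid synthesis was followed through 7 loci of Arabidopsis thaliana, chosen by locus name out of 1731 genes listed in the deposited tables. They encode 5 proteins of the early pathway and 2 MYB transcription factors that act on it. The synthesis genes are 4CL3 (AT1G65060), CHS (AT5G13930), CHI (AT3G55120), CHIL (AT5G05270) and F3H (AT3G51240). The regulators are MYB12 (AT2G47460) and PAP1 (AT1G56650). Wild-type tables list 6 of them, all but 4CL3, and BES1-RNAi tables list all 7.

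Whole seedlings that had spent 3 days in darkness were sampled either in the dark or after 1 h under green light of 10 µmol m-2 s-1. Each condition was sampled in wild type and in a line labelled BES1-RNAi, with 3 libraries in each of 4 groups. An RNAi line carries a transgene directed against the transcript of its target, here BES1, a transcription factor of brassinosteroid signalling. No source used here gives the promoter of the transgene or the number of lines behind the label. The BES1 transcript was not analysed here, and its lowering was not checked. The labels call the libraries replicates without saying that seedlings were grown separately, and the p-values cover the spread among libraries alone.

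Flavonoids are phenolic compounds that plants make from phenylalanine and that screen ultraviolet light in young shoots. A 4-coumarate:CoA ligase such as 4CL3 activates coumarate, and chalcone synthase (CHS) joins the product to malonyl-CoA units to build a chalcone. Chalcone isomerase (CHI) closes the ring to a flavanone, CHIL is a relative of CHI without isomerase activity that helps chalcone formation, and flavanone 3-hydroxylase (F3H) makes the dihydroflavonol from which flavonols and anthocyanins branch. MYB12 activates the genes of the flavonol branch, and PAP1, also called MYB75, activates anthocyanin genes together with bHLH partners.

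The windows of 250 bases before the annotated start of each gene were read from the TAIR10.1 reference assembly of RefSeq, since many regulators bind close to the start of a gene. The submitters' processing notes name TAIR10, and loci were matched by name, since the tables hold no coordinates. Printed below 5′ to 3′ on the strand of the gene are 6 of the 7 windows: the 5 with a G-box (CACGTG, a site of bZIP and bHLH factors) or an AC element (a site of MYB factors, searched as ACCTACC and as its variants with the letters ACCAACC or with the letters ACCTAAC), and PAP1, which had none. Capitals mark G-boxes and AC elements, which were sought on both strands.
CHS: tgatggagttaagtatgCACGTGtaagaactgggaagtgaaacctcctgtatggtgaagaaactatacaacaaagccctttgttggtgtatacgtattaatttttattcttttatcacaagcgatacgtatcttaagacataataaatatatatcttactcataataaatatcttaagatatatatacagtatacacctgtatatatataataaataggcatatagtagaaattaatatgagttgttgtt
CHIL: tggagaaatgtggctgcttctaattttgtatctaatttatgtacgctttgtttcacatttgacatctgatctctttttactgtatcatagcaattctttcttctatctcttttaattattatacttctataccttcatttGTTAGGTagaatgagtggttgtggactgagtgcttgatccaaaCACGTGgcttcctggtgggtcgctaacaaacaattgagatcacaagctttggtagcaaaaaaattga
F3H: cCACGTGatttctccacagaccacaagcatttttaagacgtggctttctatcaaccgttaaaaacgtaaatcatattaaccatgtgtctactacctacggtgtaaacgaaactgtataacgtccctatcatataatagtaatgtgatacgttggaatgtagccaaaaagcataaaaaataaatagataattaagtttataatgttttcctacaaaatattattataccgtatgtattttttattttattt
4CL3: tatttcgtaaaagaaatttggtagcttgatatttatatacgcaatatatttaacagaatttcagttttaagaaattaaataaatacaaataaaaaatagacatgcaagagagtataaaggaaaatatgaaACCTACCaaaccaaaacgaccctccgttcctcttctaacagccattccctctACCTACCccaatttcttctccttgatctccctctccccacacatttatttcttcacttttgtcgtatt
MYB12: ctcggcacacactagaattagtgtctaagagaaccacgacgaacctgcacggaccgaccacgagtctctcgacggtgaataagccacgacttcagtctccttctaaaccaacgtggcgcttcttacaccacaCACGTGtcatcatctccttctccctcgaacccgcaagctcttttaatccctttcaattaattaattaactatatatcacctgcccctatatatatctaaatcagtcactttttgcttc
PAP1: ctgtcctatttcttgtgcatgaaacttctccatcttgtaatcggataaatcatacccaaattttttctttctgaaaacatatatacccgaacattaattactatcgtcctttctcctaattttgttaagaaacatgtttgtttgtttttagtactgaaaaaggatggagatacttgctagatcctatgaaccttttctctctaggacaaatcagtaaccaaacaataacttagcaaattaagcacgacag

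The window of CHS lies at chr5:4488226-4488475, that of CHIL at chr5:1563036-1563285 and that of F3H at chr3:19024942-19025191, all on the plus strand. MYB12 is also on the plus strand, at chr2:19476076-19476325. The window of 4CL3 at chr1:24171636-24171885 and that of PAP1 at chr1:21235293-21235542 are on the minus strand. A G-box was present in 4 of the 7 windows, those of CHS, CHIL, F3H and MYB12, and in 6.49% of the windows of 27443 protein-coding genes. Those of F3H (bases -249 to -244 from the start) and CHS (-233 to -228) lay near the far edge, so the count depends on window length. An AC element was present in CHIL, on the minus strand, and at 2 places in 4CL3, and in 6.12% of all windows. The brassinosteroid response element (CGTGTG or CGTGCG, one of several kinds of site of the BES1 family) was found only in MYB12. There it lay on the minus strand, overlapping the G-box, and 6.71% of all windows held it. The shorter ACGT core, which every G-box contains, was in the same 4 windows and in 44.1% of all, and E-boxes (CANNTG, which also take in the G-box) were in 5 members and in 55.3% of all. PAP1 held none of these letters in its window, and CHI held only E-boxes. A match describes letters and not a bound site.

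The genes themselves span chr5:4488476-4490264 for CHS (2 exons), chr3:20430059-20431597 for CHI (4 exons), chr5:1563286-1565324 for CHIL (5 exons) and chr3:19025192-19026872 for F3H (4 exons). 4CL3 lies at chr1:24167202-24171635 (7 exons), MYB12 at chr2:19476326-19479597 (3 exons) and PAP1 at chr1:21233555-21235292 (3 exons). Exon counts are those of the transcript with the most exons.

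Levels are FPKM as deposited (fragments per kilobase of transcript, scaled to each library's mapped total), so that levels of different genes can be set side by side per length. Differences were tested with limma on log2(FPKM + 1), adjusted by the Benjamini-Hochberg method over all genes listed, and a gene passed at an adjusted p under 0.05. This scale understates the change of genes at low level. The tables hold genes that the submitters selected, apparently on the light difference, so a light call describes a listed gene and is no independent evidence. Read depth is unknown. Nuclear ribosomal RNA (AT2G01020) moved with the groups, at 6729 ± 2244 FPKM in wild-type darkness, 35324 ± 16806 in wild-type light, 2396 ± 954 in BES1-RNAi darkness and 6093 ± 1062 in BES1-RNAi light (SD, n = 3). RNA that takes a changing share of a library shifts all other FPKM values, and its part in the results was not tested. In whole seedlings, fewer cells that use a gene and less of its RNA per cell cannot be told apart. Of 4 green-tissue markers, 3 were listed for wild type, with summed levels of 100 to 115 FPKM in darkness and 529 to 867 in light. Of 4 root markers 2 were listed, with sums of 1.59 to 2.67 and 2.86 to 6.13 FPKM, and of 4 seed storage markers only SESA5, at 2242 to 3038 and 3616 to 5417 FPKM. None of 4 seed coat markers was listed, and BES1-RNAi tables listed no marker of the 4 lists. The part of these tissues in the members' levels was not tested.

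Green light was associated with higher transcript levels of every listed member in both genotypes. In wild type 6 of 6 members rose, beside 62.9% of all 1287 listed genes, and in BES1-RNAi 7 of 7 rose, beside 73.5% of 1077. In each of these members all light libraries lay above all dark libraries, as in 62.2% and 73.1% of listed genes. The members' log2 changes had a median of 1.62 for wild type (6 members) and 2.71 for BES1-RNAi (7 members, with 4CL3). Over all listed genes, falling ones included, the medians were 0.82 and 1.07. Among genes called up alone they were higher, at 1.09 (wild type) and 1.26 (BES1-RNAi). Every member exceeded the median of called genes for its genotype, though MYB12 of BES1-RNAi barely did, at 1.27. With the libraries scaled to the same median, the median gene's change fell by 0.37 in wild type (log2, from 0.82 to 0.45) and fell by 0.76 in BES1-RNAi (from 1.07 to 0.31), and all members still rose. Each median was taken over listed genes, most of which rose with light, so this scaling can also remove real change. In BES1-RNAi the scaled log2 changes were 1.59 for 4CL3, 2.01 for CHS, 1.47 for CHI, 1.92 for CHIL, 3.89 for F3H, 0.92 for MYB12 and 2.41 for PAP1, while those of wild type ran from 1.14 for PAP1 to 5.21 for F3H. Group means of the members were scaled with medians of another set, the 633 genes listed for both genotypes. This moved 18 of the 26 means by more than their SD. The split of calls over all genes went from 810 up and 446 down to 641 up and 448 down in wild type, and from 792 and 281 to 506 and 282 in BES1-RNAi.

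4CL3, at the entry to the pathway, was listed for BES1-RNAi only, at 1.59, 2.14 and 1.47 FPKM in darkness (libraries 1, 2 and 3, an order kept throughout) and at 12.3, 12.13 and 12.22 in green light. Light libraries were nearly equal and stood 7.05-fold above the dark mean. The change was 2.28 ± 0.15 (log2 ± SE, limma, adjusted p = 5.2e-07). Its level in wild type was not analysed here, so no genotype difference is given.

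CHS, the enzyme that commits carbon to flavonoids, stood in wild type at 1.89, 2.21 and 1.55 FPKM in darkness and at 13.55, 31.57 and 15.24 in green light. In BES1-RNAi it stood at 13.56, 23.93 and 11.71 FPKM in darkness and at 128.31, 119.83 and 111.13 in light. The dark libraries of BES1-RNAi thus overlapped the light libraries of wild type, with wild-type darkness below both and BES1-RNAi light above both. Light raised the mean 10.7-fold in wild type and 7.30-fold in BES1-RNAi, with log2 changes of 2.78 ± 0.31 (limma, adjusted p = 7.6e-05) and 2.86 ± 0.22 (adjusted p = 1.3e-06). BES1-RNAi was higher by 2.54 ± 0.26 in darkness (adjusted p = 4.4e-07) and by 2.61 ± 0.26 in light (adjusted p = 2.1e-07). The light responses of the genotypes differed by 0.07 ± 0.37 (limma interaction, adjusted p = 0.90; -0.25 after scaling to the same median), which does not show them to be equal.

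CHI, the ring-closing isomerase, stood at 4.23, 3.34 and 4.83 FPKM in wild-type darkness and at 13.42, 18.17 and 15.33 in wild-type light. BES1-RNAi had 7.05, 9.32 and 5.61 FPKM in darkness and 40.61, 37.91 and 37.93 in light. None of these 4 ranges overlapped. CHI had the smallest fold changes of mean among the synthesis genes tested in both genotypes, 3.78 with light in wild type and 5.30 in BES1-RNAi. Between genotypes the log2 difference was 0.68 ± 0.17 in darkness (limma, adjusted p = 0.0021) and 1.27 ± 0.17 in light (adjusted p = 5.4e-06). The dark difference was 0.32 and no longer passed after scaling to the same median (adjusted p = 0.13; 0.00056 to 0.13 over 18 alternatives).

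CHIL, the helper protein, stood at 1.39, 2.08 and 1.07 FPKM in wild-type darkness and at 4.74, 9 and 5.46 in light. BES1-RNAi had 4.55, 6.26 and 3.13 FPKM in darkness and 35.41, 32.41 and 37.37 in light. As for CHS, BES1-RNAi darkness overlapped wild-type light, and BES1-RNAi light lay above every other library. The light change was 1.53 ± 0.26 in wild type (limma, adjusted p = 0.00074) and 2.71 ± 0.19 in BES1-RNAi (adjusted p = 9.3e-07). BES1-RNAi was higher by 1.15 ± 0.23 in darkness (adjusted p = 0.00036) and by 2.33 ± 0.23 in light (adjusted p = 1.7e-07).

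F3H, which opens the branch to flavonols and anthocyanins, moved most with light. Wild-type libraries had 0.51, 0.84 and 0.58 FPKM in darkness and 71.46, 75.29 and 77.25 in light. BES1-RNAi libraries had 5.73, 8.64 and 6.84 FPKM in darkness and 226.86, 185.05 and 215.89 in light. No ranges overlapped, and the wild-type light libraries lay within 6 FPKM of each other. The means rose 116-fold in wild type and 29.6-fold in BES1-RNAi. On the log2 scale the changes were 5.53 ± 0.14 (limma, adjusted p = 1.3e-07), the second largest rise of 1287 genes, and 4.71 ± 0.14 (adjusted p = 7.8e-09), rank 3 of 1077. In darkness BES1-RNAi stood 10.99-fold above wild type (log2 2.29 ± 0.14, limma, adjusted p = 9.4e-10), and in light 2.80-fold (1.47 ± 0.14, adjusted p = 7.7e-08).

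An annotated non-coding RNA, AT3G51238, overlaps F3H on the other strand and is itself listed; it was picked out after its values were seen. It was listed at 0 in the wild-type dark libraries, at 2.2, 3.02 and 2.13 FPKM in wild-type light, at 0.08, 0 and 0.09 in BES1-RNAi darkness and at 6.08, 4.02 and 5.77 in BES1-RNAi light. These light values were 2.76 to 4.01% of those of F3H in wild type and 2.17 to 2.68% in BES1-RNAi. No source used here gives the use of strand in counting, so reads of this RNA and of F3H cannot be told apart. CHS overlaps AT5G13940 on the other strand in the same way, and that locus was not analysed here.

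**Figure D1:**
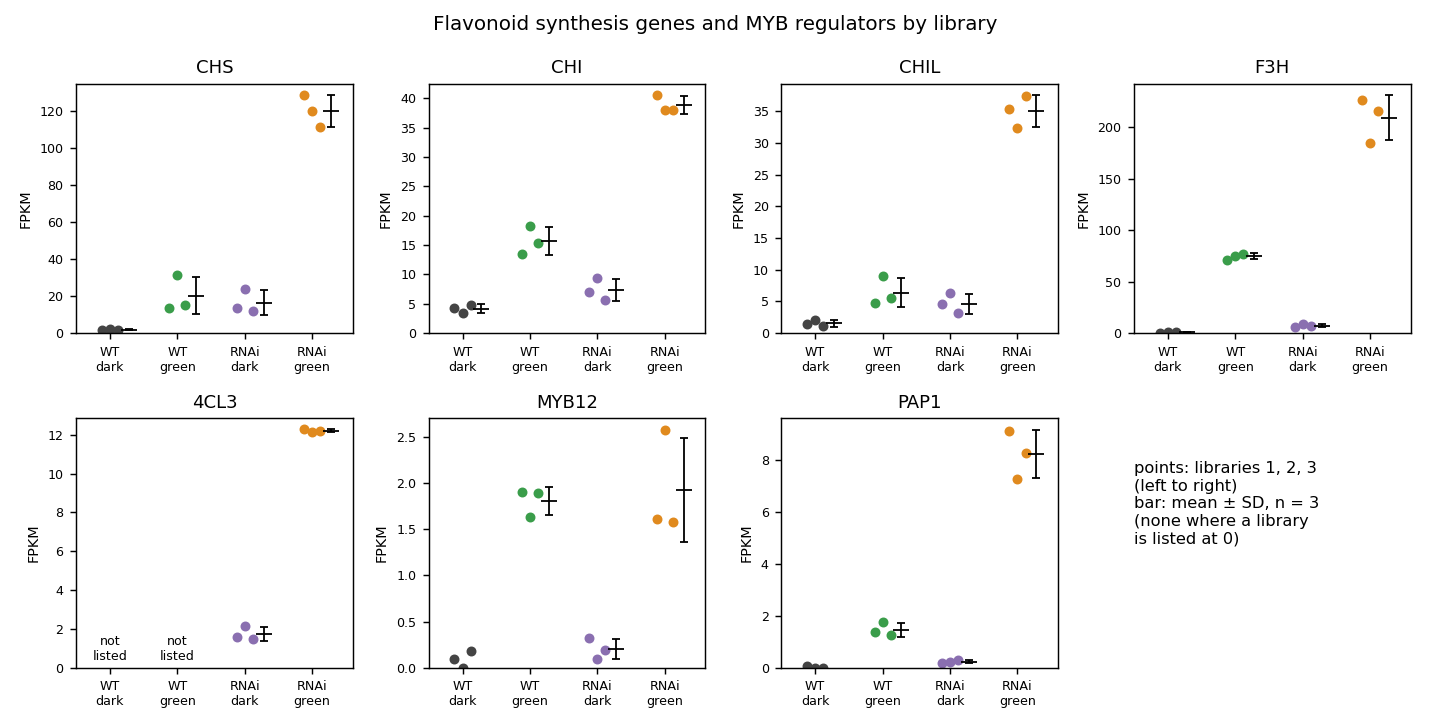
Level of each member in FPKM (vertical axis, starting at 0, its own scale per panel) in the 4 groups; points are single libraries and bars the mean ± SD of 3 libraries, left out where a library is listed at 0. BES1-RNAi light libraries are the highest of all for CHS, CHI, CHIL, F3H and PAP1, while for MYB12 the light libraries of both genotypes overlap.

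In each group the regulators had the lowest mean levels among the members listed. MYB12, the activator of flavonol genes, was listed at 0.09, 0 and 0.18 FPKM in wild-type darkness and stood at 1.9, 1.63 and 1.89 in light. BES1-RNAi libraries had 0.32, 0.1 and 0.19 FPKM in darkness and 1.61, 2.57 and 1.58 in light. The genotypes overlapped in both conditions, and dark and light did not. Light changed MYB12 by 1.37 ± 0.13 in wild type (limma, adjusted p = 4.2e-05) and by 1.27 ± 0.17 in BES1-RNAi (adjusted p = 6.0e-05). BES1-RNAi minus wild type was 0.14 ± 0.15 in darkness (adjusted p = 0.41) and 0.04 ± 0.15 in light (adjusted p = 0.81; -0.27 after scaling, adjusted p = 0.14). MYB12 was the only member tested that passed in neither genotype comparison, which does not show that its levels were the same.

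PAP1, the activator of anthocyanin genes, was listed at 0.07, 0 and 0 FPKM in wild-type darkness and stood at 1.38, 1.77 and 1.26 in light. BES1-RNAi libraries had 0.17, 0.24 and 0.31 FPKM in darkness and 9.11, 7.26 and 8.27 in light. All 4 ranges were separate. Light changed PAP1 by 1.27 ± 0.13 in wild type (limma, adjusted p = 6.3e-05) and by 2.89 ± 0.15 in BES1-RNAi (adjusted p = 1.1e-07). In light BES1-RNAi stood 5.59-fold above wild type (log2 1.90 ± 0.14, adjusted p = 5.4e-09). In darkness the difference was 0.28 ± 0.14 and did not pass (limma, adjusted p = 0.090), although it did with a pseudocount of 0.1 (1.49, adjusted p = 0.00063), without the intensity trend (adjusted p = 0.047) and in a fit of the 6 dark libraries alone (adjusted p = 0.036). Over 18 alternatives the adjusted p was 0.00063 to 0.22. PAP1 has close relatives, and no source used here says how reads shared between loci were assigned, so its level is uncertain in that respect.

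The order of the members per length changed between darkness and light. In wild-type darkness CHI led at 4.13 ± 0.750 FPKM, followed by CHS at 1.88 ± 0.330, CHIL at 1.51 ± 0.516 and F3H at 0.643 ± 0.174 (SD, n = 3). CHS and CHIL overlapped, and the other neighbours among these did not. In wild-type light F3H led at 74.7 ± 2.94 FPKM, CHS at 20.1 ± 9.95 and CHI at 15.6 ± 2.39 overlapped, and CHIL followed at 6.40 ± 2.28. MYB12, at 1.81 ± 0.153 FPKM, and PAP1, at 1.47 ± 0.267, overlapped at the low end. In BES1-RNAi darkness CHS led without overlap at 16.4 ± 6.59 FPKM, above CHI at 7.33 ± 1.87, F3H at 7.07 ± 1.47 and CHIL at 4.65 ± 1.57. CHI overlapped F3H, and F3H overlapped CHIL. In BES1-RNAi light the 7 members formed an order without overlap. F3H, at 209 ± 21.7 FPKM, stood above CHS, at 119.8 ± 8.59, then CHI at 38.8 ± 1.55 and CHIL at 35.1 ± 2.50. 4CL3 at 12.2 ± 0.0850, PAP1 at 8.21 ± 0.926 and MYB12 at 1.92 ± 0.563 FPKM followed.

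Between genotypes, 4 of 6 members were higher in BES1-RNAi in darkness, namely CHS, CHI, CHIL and F3H, beside 48.7% of the 633 genes listed for both genotypes. BES1-RNAi libraries all lay above wild type for those 4 and PAP1, as for 52.0% of the 633. In green light 5 of 6 were higher, all but MYB12, beside 54.7%, and the same 5 had separate libraries, beside 57.5%. The members' median difference was 0.92 in darkness and 1.68 in light, against 0.34 and 0.46 over the 633 genes. After scaling to the same median, the median gene's difference fell by 0.32 in darkness and fell by 0.47 in light, and the calls over all genes went from 308 higher and 100 lower to 211 and 193 in darkness, and from 346 and 101 to 223 and 220 in light. Equal medians remove the median difference by design (0.018 in darkness and -0.012 in light remained), whether or not it was real. CHS, CHIL and F3H in darkness, and those with CHI and PAP1 in light, were still called higher after scaling.

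**Figure D2:**
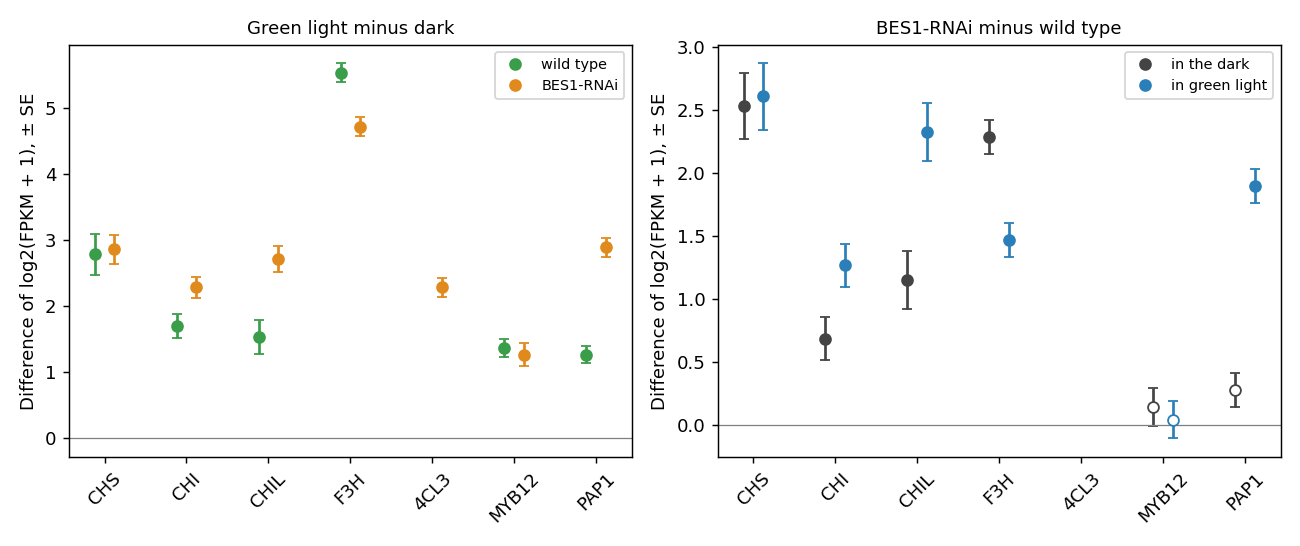
Differences of log2(FPKM + 1) with SE for each member, light minus dark in wild type and BES1-RNAi (left) and BES1-RNAi minus wild type in darkness and green light (right); filled points passed at an adjusted p under 0.05 and open points did not. F3H has the largest light change in both genotypes, and MYB12 lies near 0 in both genotype comparisons.

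The light responses of the genotypes were compared by an interaction term over the 12 libraries. The response of PAP1 was larger in BES1-RNAi by 1.62 ± 0.19 (log2, limma, adjusted p = 2.4e-05) and that of CHIL by 1.18 ± 0.32 (adjusted p = 0.014), while that of F3H was smaller, at -0.82 ± 0.19 (adjusted p = 0.0058). These are 2 larger and 1 smaller of 6 members, beside 17.7% larger and 10.6% smaller among the 633 genes (112 and 67, or 69 and 85 after scaling). The 633 are genes listed for both genotypes, apparently by selection on the light difference. Genes listed for 1 genotype alone are left out, so these shares and calls are not independent of that selection. F3H passed under all 17 alternatives, from -1.79 to -0.68. The direction for PAP1 belongs to log2 values with a pseudocount: without one, mean light over mean dark level was 63 for wild type, whose dark libraries include 2 listed at 0, against 34.2 for BES1-RNAi. PAP1 and CHIL were lost with a pseudocount of 0.1 (0.92, adjusted p = 0.15, and 0.94, adjusted p = 0.13), and CHIL also after scaling (0.84, adjusted p = 0.092). CHI, at 0.58 ± 0.24, did not pass (adjusted p = 0.081), but did when the second library of wild-type darkness (0.70, adjusted p = 0.048), wild-type light (0.69, adjusted p = 0.045) or BES1-RNAi darkness (0.75, adjusted p = 0.022) was left out. MYB12 was at -0.10 ± 0.21 (adjusted p = 0.77).

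Ratios of members within a library do not depend on how libraries are scaled; they were chosen after the values were seen. F3H stood at 0.270 to 0.380 of the level of CHS in wild-type darkness and at 2.38 to 5.27 times it in wild-type light. In BES1-RNAi the ratio went from 0.361 to 0.584 in darkness to 1.54 to 1.94 in light, so that in light it was lower than in wild type in every library. The ratio of CHI to CHS was 1.51 to 3.12 and 0.576 to 1.01 in wild type, and 0.389 to 0.520 and 0.316 to 0.341 in BES1-RNAi, without overlap between any groups that share a genotype or a condition. CHIL stood at 0.353 to 0.495 of the level of CHI in wild-type light and at 0.855 to 0.985 in BES1-RNAi light, while in darkness the genotypes overlapped, at 0.222 to 0.623 and 0.558 to 0.672. PAP1 over MYB12 was 0.667 to 1.09 in wild-type light and 2.82 to 5.66 in BES1-RNAi light. Each ratio without overlap had a two-sided exact permutation p = 0.1, the smallest that 3 against 3 libraries can give, and 0.127 after Benjamini-Hochberg adjustment over 14 comparisons. None therefore passed.

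**Figure D3:**
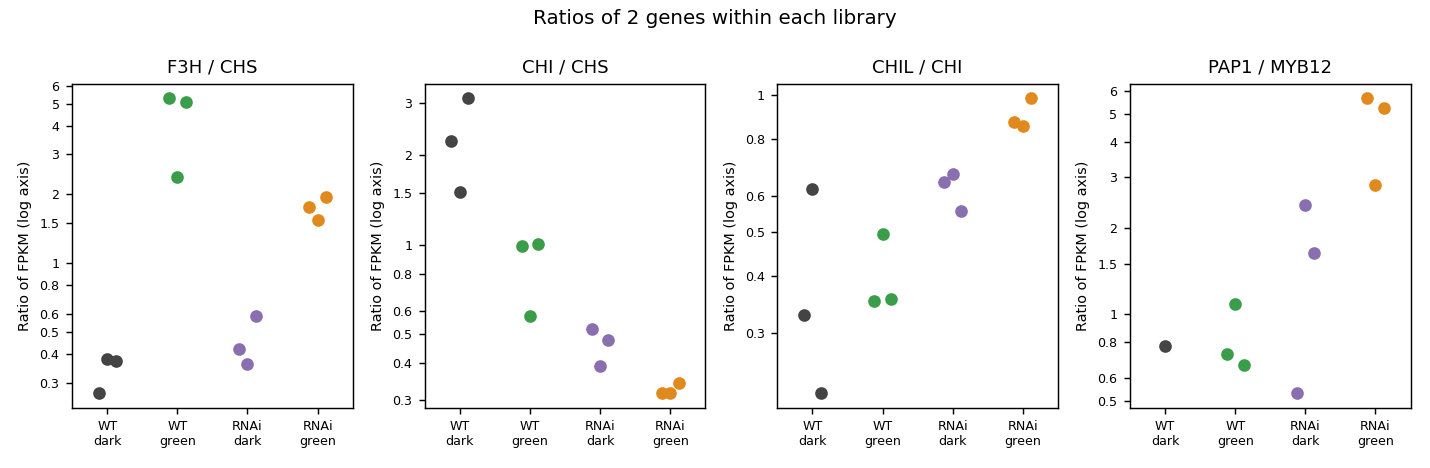
Ratio of the FPKM of 2 members within each library (log axis) in the 4 groups; each point is 1 library, and libraries in which MYB12 or PAP1 is listed at 0 are left out. F3H over CHS is above 1 only in light, and PAP1 over MYB12 is highest in BES1-RNAi light.

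No library was highest or lowest of its group for all members. The second library of wild-type light was highest for CHS, CHI, CHIL and PAP1 and lowest for MYB12. The second library of BES1-RNAi darkness was highest for CHS, CHI, CHIL, F3H and 4CL3 and again lowest for MYB12. In wild-type darkness the second library was highest for CHS, CHIL and F3H and lowest for CHI and MYB12. PAP1 was listed at 0 in it and in the third library alike. The second library of BES1-RNAi light went the other way, lowest for CHI, CHIL, F3H, 4CL3 and PAP1 and highest for MYB12. Leaving out any of these second libraries changed no call of a member other than that of CHI in the interaction. Over 12 libraries, the log2 level of each member correlated with the mean standardized profile of the others with a Pearson r from 0.844 for MYB12 to 0.991 for CHI; the points share 4 groups. The 5 other genes with the profile most like the mean of the members were VTC2 (r = 0.998), XTH32 (0.996), bHLH34 (0.994), PK1 (0.994) and SPA3 (0.994), of 610 genes compared. The median r of those genes was 0.884 and 280 were over 0.9. SPA3 is a partner of the light-signalling repressor COP1, and XTH32 belongs to a family of cell wall enzymes. VTC2, an enzyme of ascorbate synthesis, went from 66.0 ± 6.79 to 324 ± 29.4 FPKM in wild type and from 131 ± 9.85 to 1026 ± 36.9 in BES1-RNAi.

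The wider pathway was read from a list of 53 loci. In wild type 14 were listed, of which 12 rose with light, 1 fell and 1 did not pass, with a median change of 1.42. In BES1-RNAi 16 were listed, of which 13 rose and 3 fell, with a median of 1.60. Over all listed genes 62.9% of 1287 rose in wild type and 73.5% of 1077 in BES1-RNAi, with median changes of 0.82 and 1.07. After scaling to the same median, 12 pathway genes rose and 1 fell in wild type, and 11 rose and 3 fell in BES1-RNAi. Over all listed genes 641 and 506 then rose. Of the next enzymes, only FLS1, flavonol synthase, was listed, at 0.957 ± 0.0252 FPKM in wild-type darkness, 3.27 ± 1.51 in light, 4.59 ± 2.19 in BES1-RNAi darkness and 18.75 ± 2.70 in light. It rose in both genotypes (1.07 and 1.88) and was higher in BES1-RNAi in darkness (1.45, limma, adjusted p = 0.00010) and light (2.26, adjusted p = 6.9e-07). The difference of its responses, 0.81 ± 0.36, did not pass (adjusted p = 0.10), but did without the second library of wild-type light (1.08, adjusted p = 0.022) or of BES1-RNAi darkness (1.11, adjusted p = 0.015). No later anthocyanin enzyme of the list (DFR, LDOX) was listed.

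Of the genes that attach sugars to flavonoids, 3 rose in both genotypes. UGT78D2, a flavonoid glucosyltransferase, went from 4.04 ± 0.716 to 57.7 ± 2.85 FPKM in wild type and from 7.78 ± 0.932 to 89.2 ± 5.52 in BES1-RNAi. UGT78D1, a flavonol rhamnosyltransferase, went from 6.26 ± 0.731 to 17.9 ± 3.17 and from 13.99 ± 4.30 to 47.3 ± 2.84 FPKM. UGT89C1, another rhamnosyltransferase, rose from 25.2 ± 2.26 to 106 ± 7.66 and from 21.3 ± 10.4 to 127.6 ± 15.5 FPKM, with no genotype difference called as deposited. In darkness it was called lower in BES1-RNAi after scaling (-0.77, limma, adjusted p = 0.0080) and without the second BES1-RNAi dark library (-0.68, adjusted p = 0.00019). Leaving out that library also brought its light difference (0.26, adjusted p = 0.049) and its interaction (0.94, adjusted p = 0.00093) past the threshold. UGT78D1 and UGT78D2 were higher in BES1-RNAi in both conditions, but UGT78D2 in light was at 0.07 and not called after scaling. UGT75C1, an anthocyanin glucosyltransferase listed for wild type alone, stood at 0.13 FPKM in each dark library and at 0.22, 1.09 and 0.44 in light and did not pass (limma, adjusted p = 0.054). It passed without the first light library (0.62, limma, adjusted p = 0.014) and with a pseudocount of 0.1 (1.36, adjusted p = 0.027). UGT84A1 and UGT84A2, glucosyltransferases of the sinapate branch, also rose in both genotypes, UGT84A2 from 24.5 ± 2.27 to 145 ± 3.54 FPKM and from 32.0 ± 6.95 to 165 ± 15.1. C4H, a phenylpropanoid entry enzyme listed for BES1-RNAi, rose from 127 ± 7.02 to 258 ± 11.4 FPKM (log2 1.01), and was at 0.14 and not called after scaling.

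Among other activators, MYB111, a relative of MYB12 that also activates flavonol genes, rose from 1.45 ± 0.140 to 5.31 ± 1.71 FPKM in wild type and from 4.23 ± 0.944 to 12.96 ± 1.26 in BES1-RNAi. It passed in both genotype comparisons, with 1.08 in darkness (limma, adjusted p = 9.8e-05) and 1.17 in light (adjusted p = 3.6e-05). MYB11, the third of these relatives, was listed for BES1-RNAi alone, at 0, 0.12 and 0.06 FPKM in darkness and 0.83, 0.72 and 1.45 in light. PAP2, the nearest relative of PAP1, was listed for wild type alone, at 0 in every dark library and at 0.41, 0.29 and 0.41 FPKM in light. GL3, a bHLH partner of PAP1, rose from 0.837 ± 0.119 to 4.14 ± 0.780 and from 0.813 ± 0.379 to 3.94 ± 0.291 FPKM, with genotype differences of -0.04 and -0.05 that did not pass.

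Repressors went in both directions. CPC, a small MYB that competes for bHLH partners, rose with light from 3.96 ± 0.0153 to 8.32 ± 1.44 FPKM in wild type and from 2.59 ± 0.391 to 5.57 ± 1.44 in BES1-RNAi, where the rise was 0.17 and not called after scaling. It was the only pathway gene called lower in BES1-RNAi in both conditions as deposited, by -0.47 in darkness (limma, adjusted p = 0.028) and -0.52 in light (adjusted p = 0.016). The dark call was lost without any single wild-type dark library, or without BES1-RNAi dark library 1 or 3 (-0.48 to -0.41, adjusted p = 0.057 to 0.093), and the light call without library 3 of wild type (-0.40) or library 3 of BES1-RNAi (-0.33). After scaling both differences were larger, at -0.89 in darkness (adjusted p = 0.00051) and -0.94 in light (adjusted p = 0.00030). LBD39, a repressor of anthocyanin synthesis listed for wild type, fell from 32.5 ± 5.23 to 9.68 ± 0.652 FPKM. The Kelch F-box genes KFB20, KFB50 and KFB-CHS, whose products mark pathway enzymes for breakdown, were listed for BES1-RNAi and fell with light. KFB-CHS, which targets CHS, went from 62.2 ± 5.22 to 27.9 ± 2.29 FPKM, KFB20 from 116.8 ± 26.9 to 32.4 ± 2.62 and KFB50 from 57.4 ± 12.01 to 19.1 ± 0.693.

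HY5 and HYH, bZIP factors that activate flavonoid genes in light, stood above MYB12 and PAP1 per length in every group. HY5 rose from 18.7 ± 1.11 to 235 ± 15.3 FPKM in wild type and from 34.1 ± 5.75 to 253.5 ± 19.1 in BES1-RNAi. HYH rose from 3.32 ± 0.0954 to 48.4 ± 7.69 FPKM and from 19.9 ± 2.26 to 166.6 ± 19.7. HYH was higher in BES1-RNAi in darkness (2.27, limma, adjusted p = 4.4e-10) and light (1.77, adjusted p = 4.7e-09), whereas HY5 passed in darkness (0.82, adjusted p = 6.5e-06) and was at 0.11 in light (adjusted p = 0.39). Of 11 pathway genes listed for both genotypes, 7 were higher and 1 lower in BES1-RNAi in darkness, and 6 higher and 1 lower in light, with medians of 0.81 and 0.50. Over the 633 genes 48.7% were higher in darkness and 54.7% in light, so the count in light was close to the share of all genes. After scaling these counts were 6 and 2 in darkness, and 4 and 4 in light, where HY5, GL3, UGT84A2 and CPC were the lower ones. In the interaction none of the 11 was larger and 2 were smaller, HY5 (-0.72, adjusted p = 0.0035) and HYH (-0.50, adjusted p = 0.046), beside 17.7% larger and 10.6% smaller over all 633. Leaving out 1 library kept the call of HYH only for wild-type light 1, BES1-RNAi darkness 2 or BES1-RNAi light 3. Without any other single library its adjusted p was 0.058 to 0.13. The call was also lost without the intensity trend (limma, adjusted p = 0.065), but passed after scaling with a larger difference (-0.74, adjusted p = 0.0082).

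**Figure D4:**
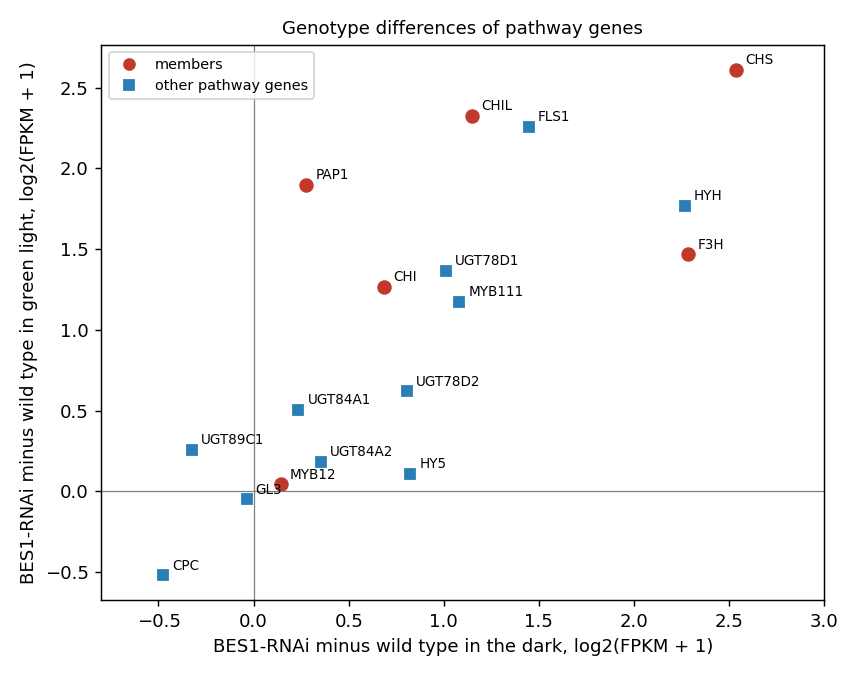
BES1-RNAi minus wild type in darkness (horizontal axis) and in green light (vertical axis), both as differences of log2(FPKM + 1), for 6 members (circles) and 11 other pathway genes (squares); each point is 1 gene over 12 libraries. CHS lies highest at 2.54 and 2.61, PAP1 is at 0.28 and 1.90, and MYB12, GL3 and CPC lie near or below 0.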

How the data were processed

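RNA-seq of 12 seedling libraries was analysed from values that the authors deposited as FPKM per gene and library. The submitters' processing notes name DESeq 1.18.0, Bowtie2, TopHat, Cufflinks, HISAT2 2.2.1.0 and Trimmomatic 0.36 without role or order, and the build TAIR10. No source used here says how genes were selected or whether strand was used. Whole reads could not be recovered from low values: 33.3 to 63.6% of them per library came within 0.1 of whole steps, so depth and counting error are unknown. Libraries of a group had Spearman correlations across genes of 0.966 to 0.993 and each was treated as its own sample.

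Tests used limma 3.58.1 (intensity trend, R 4.3.3) on log2(FPKM + 1), two-sided, with Benjamini-Hochberg adjustment and a threshold of 0.05. Light was fitted within a genotype (1287 and 1077 genes), and genotype and interaction over the 633 shared genes in 12 libraries, without a low-value filter. The code was tested on simulated data. All members, all listed loci of the pathway list and the 5 genes of most similar profile (mean of at least 1 FPKM) were named. Members and lists were chosen with earlier results of these data known. Alternatives were a pseudocount of 0.1, median scaling, a filter at a mean of 1 FPKM, each library left out, a replicate block, no trend, and other sets of libraries. Promoter windows and positions came from the TAIR10.1 RefSeq annotation.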

Additional observations from a re-analysis of the deposited data

Results flagged for a closer look

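For 3 members the light response differed between the genotypes by the interaction test of limma over 12 libraries. On the log2(FPKM + 1) scale, the response in BES1-RNAi minus that in wild type was 1.62 for PAP1, 1.18 for CHIL and -0.82 for F3H. For PAP1 the ratio of mean levels, light over dark, went the other way (63 in wild type, where 2 of 3 dark libraries are listed at 0, and 34.2 in BES1-RNAi). F3H passed under every alternative run, whereas PAP1 was lost with a pseudocount of 0.1 and CHIL with that pseudocount and after median scaling. The cause of these differences was not tested.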

How the results depend on the processing

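No call of a member reversed under the alternatives run; 4 calls were lost and 6 gained of 471. The number of members whose light responses differed went from 3 to 1 with a pseudocount of 0.1, where F3H alone remained. With the replicate block 6, 7, 4, 5 and 3 members passed in the 5 comparisons, as without it. Between libraries of equal number, 1 of 18 pairs had a correlation of deviations over 0.1 (range -0.17 to 0.11). With 3 libraries a group, this cannot show whether equal numbers share an origin. Among pathway genes the block brought FLS1 into the interaction (0.81, limma, adjusted p = 0.042). It also brought UGT75C1 into the wild-type light response (0.45, limma, adjusted p = 0.049). After scaling to the same median, genotype differences called before or after it changed sign for UGT84A2 (-0.081 in darkness, -0.37 in light) and HY5 (-0.45 in light); UGT89C1 in light went from 0.26 to -0.29, called in neither. Scaling moved these counts over all genes by over 1.5 times: rises in BES1-RNAi 792 to 506, lower in darkness 100 to 193, higher and lower in light 346 and 101 to 223 and 220, larger responses 112 to 69. Fitting light over the 633 shared genes, with fewer genes tested, gave 512 up and 119 down in wild type and 516 and 117 in BES1-RNAi. A mean filter of 1 FPKM removed MYB12 and PAP1 from the wild-type fit. Leaving out single libraries changed no count of members by over 1.5 times. Precision is limited by 3 libraries a group and by an unknown depth.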
